A study of Mus musculus with 14 samples.

Results

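Importins are the carriers that bring proteins with a nuclear localization signal through the nuclear pore. In the classical route an importin alpha (Kpna genes) reads the signal and importin beta 1 (Kpnb1) binds the alpha and carries the complex through the pore, where the GTPase Ran releases the cargo. In the testis, germ cells are known to use different importin alpha genes as they pass from spermatogonium to spermatid, and spermatid nuclei must import the proteins that reshape and pack their chromatin. The values below concern 8 importin genes, chosen by symbol from 25965 gene symbols: the importin alpha genes Kpna1, Kpna2, Kpna3, Kpna4 and Kpna6, and the carriers Kpnb1, Ipo5 and Ipo11. All 8 were in the table. They had been chosen because Kpna1 was listed lower in knockout whole testis, so that contrast is described here for the importin genes and not tested.

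The samples were adult male mice with a knockout of Tsga8 (Tsga8-/Y), an X-linked gene active in spermatids, and control males (Tsga8+/Y). Whole adult testis was measured in 3 knockout (KO) and 3 control libraries. Tissue enriched for spermatids was cut out by laser capture microdissection: 1 region covered steps 4 to 8 of the round stage, the other joined the early round stage (steps 1 to 3) and the elongated stage (steps 9 to 16), and each had 2 KO and 2 control libraries. Whole testis RNA went through a directional kit and captured RNA through SMART-seq2, so levels were not compared between whole and captured tissue. The labels speak of 2 or 3 replicate animals, do not say how the mutation was made, and do not say whether both captured regions came from the same animals. Tsga8 was low in every KO library, with 2.62, 2.12 and 3.20 RPKM in KO whole testis, against 106, 88.6 and 104 RPKM in control whole testis (log2 difference -4.79 ± 0.13, limma adjusted p = 3.05e-06). RPKM divides the reads of a gene by its length and by the depth of its library, and the deposited values used the whole gene span, introns included, as the length. Library depth on that scale ranged over 30388500 to 49147300 reads for whole testis, and over 23467200 to 72022300 for captured tissue. In bulk tissue, fewer cells of a type and less RNA per cell cannot be told apart.

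Spermatid genes were present in every captured library: the 7 markers of elongating spermatids, protamines among them, summed to 9620 to 9800 RPKM in KO and 17500 to 20400 RPKM in control tissue of steps 4 to 8, and to 12200 to 29200 RPKM in KO and 20800 to 95700 RPKM in control tissue of steps 1 to 3 and 9 to 16. Captured tissue also held RNA of other cells. All 12 markers of Sertoli cells, which nurse the germ cells, had reads in every captured library, and they summed to 46.2 to 66.9 RPKM in KO and 13.4 to 38.4 RPKM in control tissue of steps 4 to 8, and to 58.8 to 72.5 RPKM in KO and 23.8 to 82.2 RPKM in control tissue of the other region. The 7 spermatocyte markers had reads in every captured library too and summed to 184 to 205 RPKM and 193 to 199 RPKM in KO tissue of the 2 regions, against 130 to 143 RPKM and 136 to 148 RPKM in control tissue. The 2 control libraries of steps 1 to 3 and 9 to 16 differed most from each other, at a chi-square per gene of 535.3 between their reads.

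The listed Kpna1 level was lower in KO whole testis. Across the whole testis libraries it followed, read for read, the level of an antisense gene whose span overlaps the start of the Kpna1 span. Kpna1 is an importin alpha of the same subfamily as Kpna6. It lies on the forward strand at chr16:35978750-36037131 (mm10, ENSMUSG00000022905.12), a span of 58.38 kb. Gm15564, annotated as an antisense long noncoding RNA, lies on the reverse strand at chr16:35966752-35983230, and the 2 spans share 4481 bases, 7.68% of the Kpna1 span. In the GENCODE M21 annotation 1 of 10 Kpna1 transcripts starts inside that stretch, with a first exon of 101 bases. The first protein-coding Kpna1 transcript begins 84 bases beyond the end of Gm15564. No exon base of Kpna1 is an exon base of Gm15564, whereas 668 exon bases of Gm15564 lie inside the Kpna1 span. The directional kit used for whole testis marks the strand, but whether the counting used it is not given in the sources used here, and reads of the 2 genes in the shared stretch cannot be told apart in a table of one value per gene.

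**Figure D1:**
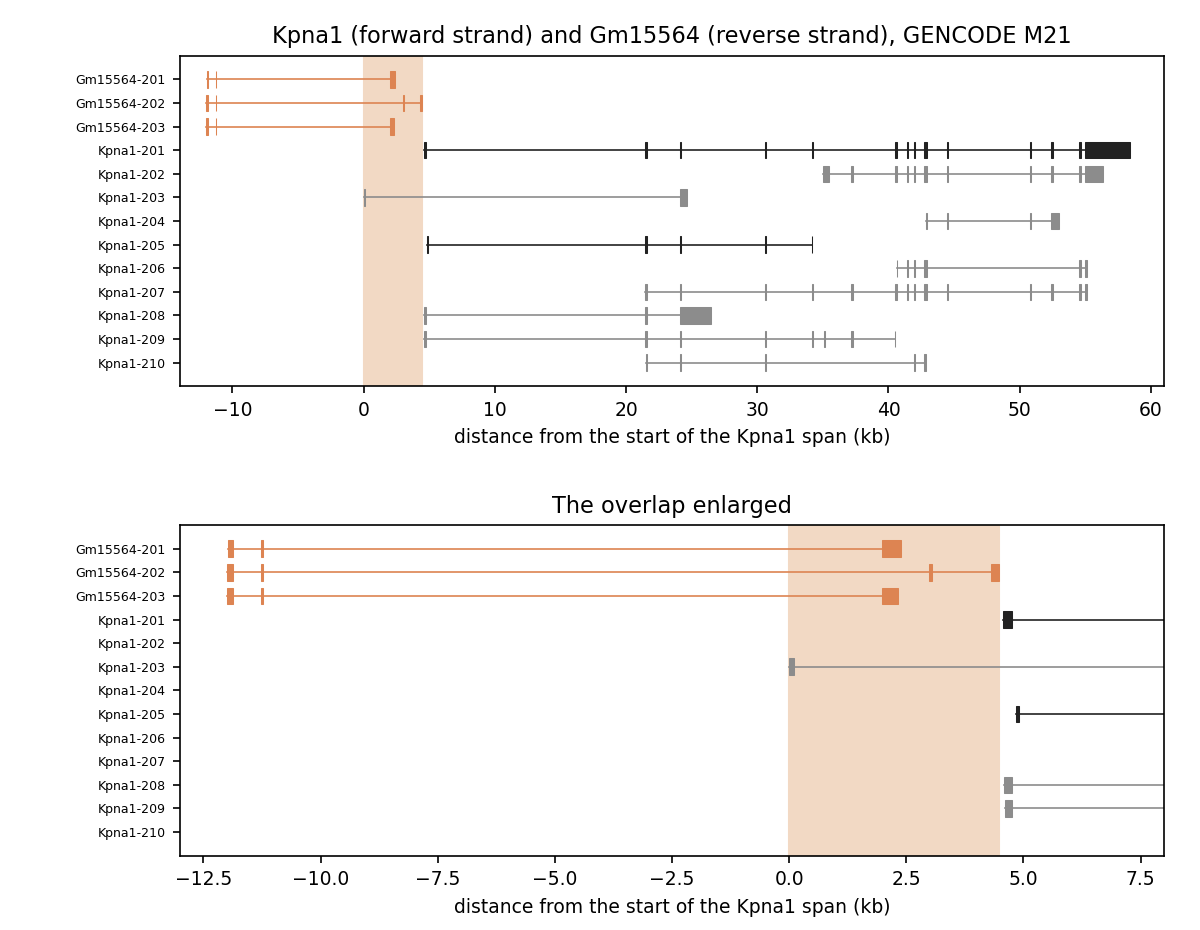
Transcripts of Gm15564 (orange, reverse strand) and Kpna1 (black where protein-coding, grey otherwise, forward strand), with boxes for exons and lines for introns, by distance in kb from the start of the Kpna1 span; the lower panel enlarges the overlap. The shaded stretch of 4481 bases is inside both spans, and the coding Kpna1 transcripts begin beyond it.

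Kpna1 had 7.53, 2.62 and 3.30 RPKM in KO whole testis, against 19.3, 11.9 and 13.2 RPKM in control whole testis. The groups did not overlap, and the log2 difference of -1.60 ± 0.31 (SE; 95% interval -2.32 to -0.88) was the 13th lowest of 8146 genes. Behind these values stood 14690, 6840 and 6668 reads in KO and 34286, 34119 and 25547 reads in control whole testis. Gm15564 alone had 12561, 4138 and 5322 reads in KO whole testis, against 32293, 30965 and 24345 reads in control whole testis. Its mean level was 12.6 ± 9.05 RPKM in KO and 49.1 ± 13.7 RPKM in control whole testis (SD, n = 3 each), a log2 difference of -2.06 ± 0.42. Across the 6 libraries Kpna1 in RPM (the RPKM value without the division by length) followed Gm15564 one for one: the least-squares slope was 1.007, and 0.993 to 1.016 with each library left out in turn, while Gm15564 itself varied 11.5-fold. The slope is a description of 6 libraries that fall into 2 groups.

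Taking the reads of Gm15564 from those of Kpna1 left a remainder of reads. It is the smallest number of Kpna1 reads outside the shared stretch only if every read in that stretch was counted for both genes. That remainder was 63.8, 60.5 and 38.9 RPM in KO whole testis, against 65.6, 64.2 and 36.3 RPM in control whole testis. The groups overlapped fully, and libraries with the same replicate number were close to each other in both genotypes. As RPKM over the Kpna1 span the remainder was 0.932 ± 0.231 in KO and 0.948 ± 0.283 in control whole testis (SD, n = 3 each), with a log2 difference of -0.01 ± 0.13 (SE; 95% interval -0.30 to 0.28). The part of the listed Kpna1 reads matched by Gm15564 reads was 85.5%, 60.5% and 79.8% in KO, against 94.2%, 90.8% and 95.3% in control whole testis. This calculation was chosen after the values were seen. It takes every Gm15564 read as also counted for Kpna1, which a table of one value per gene cannot show. Beside it, the 12 Sertoli markers summed to 208 to 278 RPKM in KO and 140 to 206 RPKM in control whole testis, and the 7 markers of elongating spermatids to 6370 to 8890 RPKM in KO and 7640 to 12500 RPKM in control whole testis; their part in the Gm15564 difference was not tested.

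**Figure D2:**
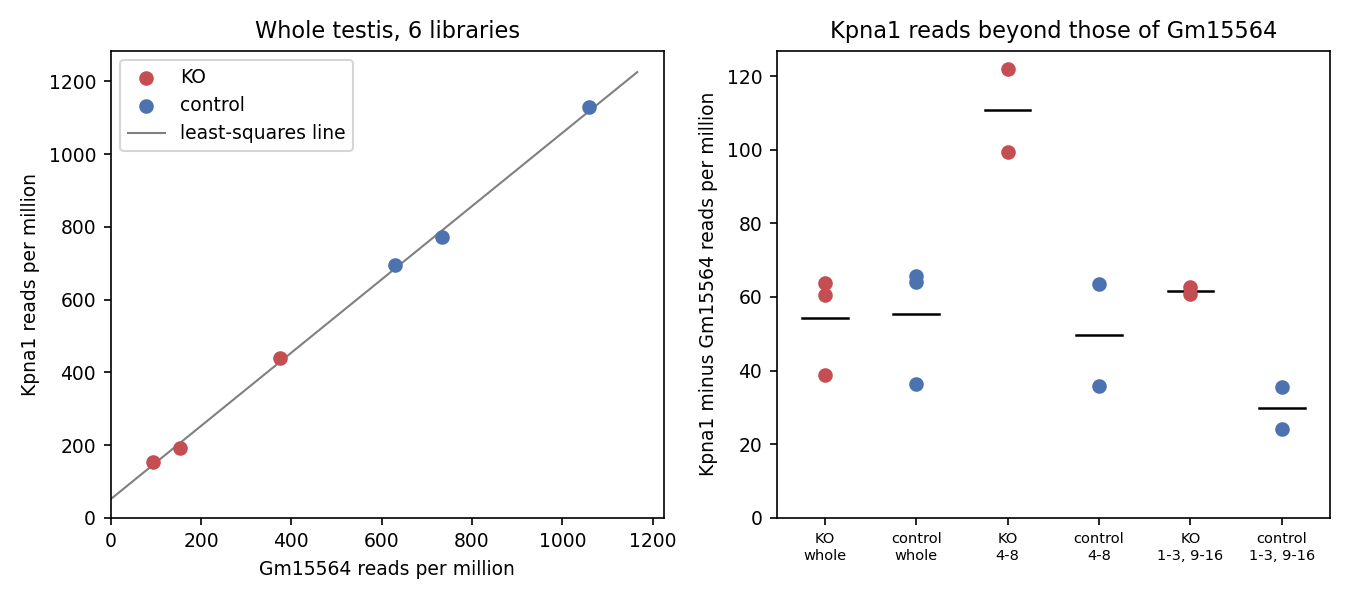
Left, RPM of Kpna1 against that of Gm15564 in the 6 whole testis libraries (red KO, blue control) with the least-squares line of slope 1.007. Right, RPM of Kpna1 minus RPM of Gm15564 in each library of the 6 groups, with the group mean as a bar: KO and control overlap in whole testis, and the KO libraries lie higher in both captured regions.

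In captured tissue Gm15564 reads were a small part of the Kpna1 value in 7 of 8 libraries, at 5.85% to 26.5%. The exception was control replicate 2 of steps 1 to 3 and 9 to 16, with 81.4% (5169 of 6348 reads). In steps 4 to 8 Kpna1 had 2.30 and 1.85 RPKM in KO tissue, against 0.822 and 1.15 RPKM in control tissue. The KO libraries lay above the controls there, opposite to whole testis, but the difference of 0.63 ± 0.41 did not pass the test (limma adjusted p = 1). In steps 1 to 3 and 9 to 16 it had 1.41 and 1.26 RPKM in KO tissue, against 0.695 and 2.22 RPKM in control tissue, a difference of 0.00 ± 0.41 (limma adjusted p = 0.999). Without the reads of Gm15564 the same region held 1.04 and 1.07 RPKM in KO tissue, against 0.608 and 0.412 RPKM in control tissue, and the KO libraries were then the higher ones in both regions. Averaged over the regions that difference was 0.55 ± 0.25 (SE; 95% interval -0.01 to 1.12; limma adjusted p = 0.638), against 0.32 ± 0.29 for the listed values, and neither passed.

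Kpna1 and Kpna6 differ at scattered bases along their whole coding sequence. The longest stretch that the coding sequences of Kpna1 and Kpna6 have in common is 16 bases, although 73.8% of their aligned coding bases are identical. The stretch around it is shown because reads of these closely related genes are told apart by such differences. Capitals mark bases that are the same in both, 50 of 64, and positions count from the first coding base of the longest coding transcript of each gene.
Kpna1 (coding bases 1409 to 1472): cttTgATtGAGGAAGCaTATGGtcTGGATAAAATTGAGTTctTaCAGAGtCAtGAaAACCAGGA
Kpna6 (coding bases 1403 to 1466): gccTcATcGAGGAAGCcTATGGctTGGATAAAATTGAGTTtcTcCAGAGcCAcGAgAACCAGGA
The other alpha genes lie at chr11:106988629-106999541 (Kpna2, ENSMUSG00000018362.14), chr14:61365186-61439947 (Kpna3, ENSMUSG00000021929.9), chr3:69067149-69127113 (Kpna4, ENSMUSG00000027782.10) and chr4:129643980-129672767 (Kpna6, ENSMUSG00000003731.13), all on the reverse strand. Kpnb1 lies at chr11:97159714-97187881 (ENSMUSG00000001440.5) and Ipo11 at chr13:106794439-106936915 (ENSMUSG00000042590.16) on the reverse strand, and Ipo5 at chr14:120911194-120948042 (ENSMUSG00000030662.10) on the forward strand.

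None of the runs of 50 bases in the Kpna1, Kpna3 and Kpna6 transcripts was found in a transcript of another gene. For Kpna2 92.4% of them were found in at least 1 of 13 other genes, and Gm10184 alone held 91.0%. Gm10184 had at most 92 reads in a library, at most 1.55% of the Kpna2 reads. Med20, which held 5.39% of the runs, had at most 935 reads in a library, and at most 26.0% of the Kpna2 reads. Most of the similar genes are not analysed here, and reads that Kpna2 and these genes could share make its level uncertain.

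The other importin alpha genes that entered the fit had log2 differences of -0.07 to 0.04 between KO and control whole testis. Kpna2, an importin alpha that is high in dividing and meiotic cells, had 16.3, 18.1 and 16.3 RPKM in KO whole testis, against 16.7, 16.0 and 17.3 RPKM in control whole testis (log2 difference 0.02 ± 0.08). Kpna6, known from mouse as needed for male fertility, had 12.4, 13.3 and 12.3 RPKM in KO whole testis, and 12.3 RPKM in each control library (0.04 ± 0.07). Kpna4, of the same subfamily as Kpna3, had 3.69, 3.79 and 3.19 RPKM in KO whole testis, against 3.45, 3.95 and 3.94 RPKM in control whole testis (-0.07 ± 0.08). The ranges of KO and control libraries overlapped for these 3 genes. Kpna3 was the lowest alpha gene, with 0.543, 0.448 and 0.465 RPKM in KO whole testis, against 0.694, 0.554 and 0.604 RPKM in control whole testis. Its KO libraries all lay below the controls. The difference was -0.12 ± 0.05 (95% interval -0.26 to 0.01) on the log2(RPKM + 1) scale in a fit without a filter. With limma voom on the recovered reads, a scale without the pseudocount, it was -0.34 ± 0.13 (95% interval -0.62 to -0.06). These intervals describe the contrast and are no test of the gene.

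In whole testis Ipo5 had the highest level of the 8 importin genes per kilobase of span. Ipo5, a beta-type importin that carries histones and ribosomal proteins, had 36.5, 42.9 and 38.8 RPKM in KO whole testis, against 31.7, 39.7 and 40.8 RPKM in control whole testis (log2 difference 0.08 ± 0.12). Kpnb1, the beta partner of the alphas, had 10.7, 9.50 and 9.68 RPKM in KO whole testis, against 10.3, 10.6 and 11.8 RPKM in control whole testis (-0.12 ± 0.09). An overlapping gene, Gm11583, had reads equal to at most 6.68% of the Kpnb1 reads in whole testis, and with these taken off the mean was 9.31 ± 0.612 RPKM in KO and 10.2 ± 0.800 RPKM in control whole testis (SD, n = 3 each). Ipo11, a carrier of ubiquitin-conjugating enzymes, had 0.321, 0.261 and 0.257 RPKM in KO whole testis, against 0.355, 0.328 and 0.372 RPKM in control whole testis, so its KO libraries too all lay below the controls. The difference was -0.08 ± 0.03 without a filter (95% interval -0.16 to 0) and -0.34 ± 0.12 with limma voom (95% interval -0.60 to -0.07). Here too the intervals are a description. Ipo11 and Kpna3 have the largest gene spans of the 8, at 142.48 and 74.76 kb, and 18.09 and 17.39 times their exon length, so their low RPKM is not a count of transcripts that can be set against compact genes. Both stayed under the filter of an RPKM of at least 1, and 6 of the 8 importin genes entered the fit. Of these 6, 1 (Kpna1) lay past the threshold used for calls, an adjusted p under 0.05, which the choice of genes had fixed and which is no test of Kpna1; of all 8146 genes 6.15% were called, 4.11% higher and 2.04% lower in KO. Over all 8 genes, filter aside, 3 (Kpna1, Kpna3 and Ipo11) had all KO libraries below the controls, and the other 5 overlapped; of the 8146 genes, 8.24% lay lower without overlap and 32.8% stood apart in either direction. Nothing follows from either count for the genes themselves, since the choice rested on this contrast. The median difference was -0.02 over the 6 genes and 0.09 over all genes, and the small differences of Kpna2, Kpna6 and Ipo5 changed sign under other scalings (with quantile normalization to -0.17, -0.13 and -0.11, where the median of all genes was 0).

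**Figure D3:**
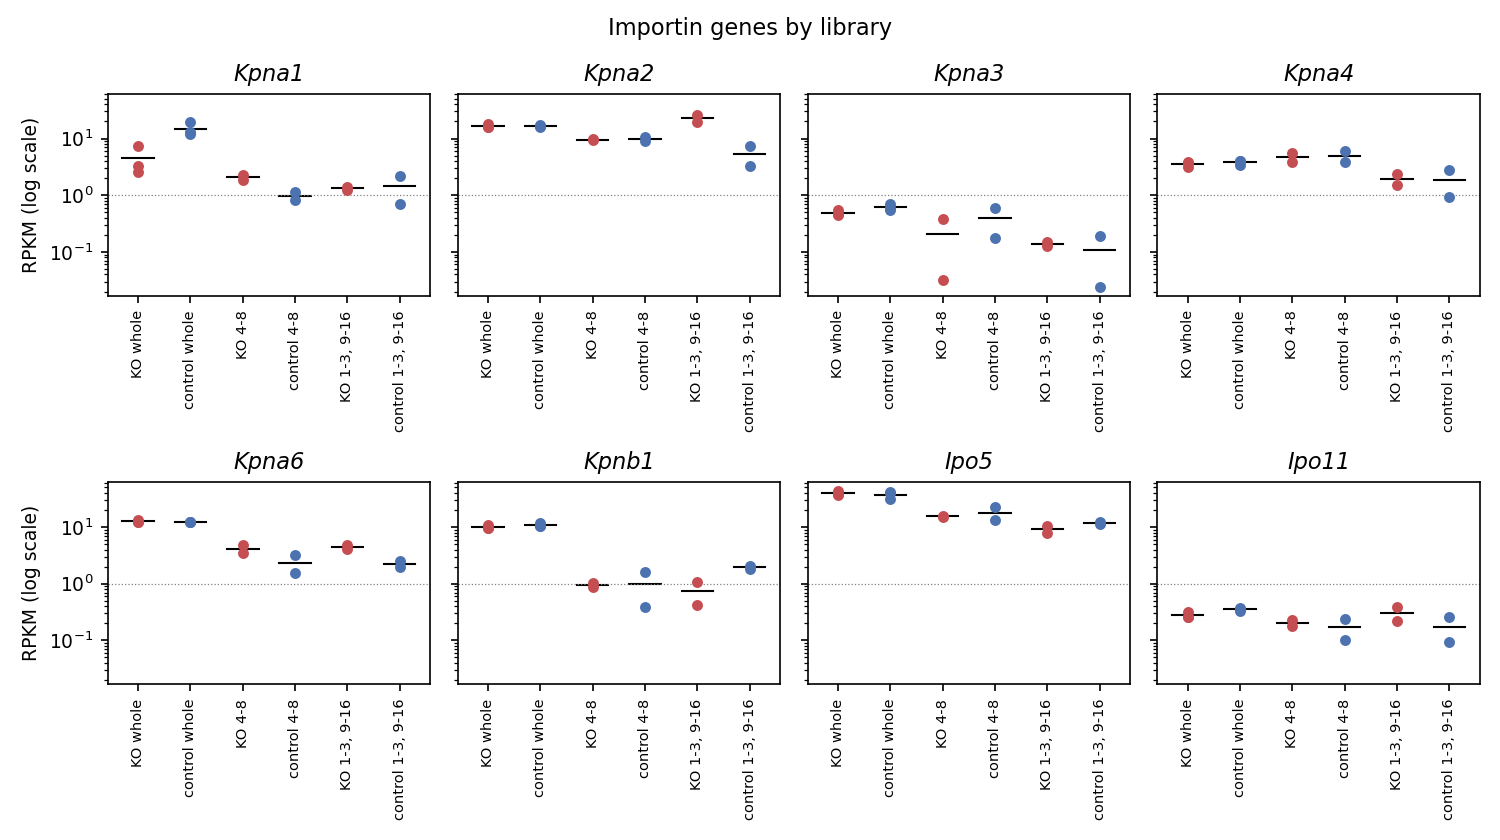
RPKM (log scale) of the 8 importin genes in each of the 14 libraries, KO in red left of control in blue for whole testis, steps 4 to 8, and steps 1 to 3 with 9 to 16; bars are group means and the dotted line marks an RPKM of 1. In whole testis the groups stand apart for Kpna1, Kpna3 and Ipo11, in steps 4 to 8 for Kpna1 and Kpna6 (KO higher), and in steps 1 to 3 and 9 to 16 for Kpna2 and Kpna6 (KO higher) and for Kpnb1 and Ipo5 (KO lower).

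The share of each gene in the summed RPKM of the 5 chosen alpha genes is a description of relative levels per length of span. Kpna7, another alpha gene, is not in this sum. It averaged 0.773 RPKM in KO and 0.684 RPKM in control whole testis. In steps 1 to 3 and 9 to 16 it had 4.58 and 4.73 RPKM in KO tissue, against 3.5 and 0.969 RPKM in control tissue. Other genes overlap its span. Kpna1 held 11.6% ± 6.21 of the sum in KO and 30.5% ± 5.58 in control whole testis (SD, n = 3 each), but 2.69% ± 0.606 in KO and 2.77% ± 0.853 in control once the reads of Gm15564 were taken off. On that basis Kpna2 held 49.0% ± 0.901 in KO and 48.6% ± 1.29 in control, and Kpna6 36.6% ± 0.541 in KO and 35.8% ± 0.447 in control whole testis. Kpna2 and Kpna6 thus had the largest shares of the 5 in adult testis once Gm15564 was taken off. In captured tissue the shares spread more: on the same basis Kpna4 held 22.9% ± 5.84 in KO and 26.5% ± 4.60 in control tissue of steps 4 to 8 (n = 2 each). Shares of one sum are not independent of each other, and no test was made on them.

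In captured spermatids no importin gene passed the test in either region, although the KO and control libraries of several stood apart. Limma called 0 of the 6 importin genes in steps 4 to 8, where 0% of 7857 genes were called and 0 importin genes had an unadjusted p under 0.05. It called 0 of 6 in steps 1 to 3 and 9 to 16, where again 0% of all genes were called and 1 importin gene had an unadjusted p under 0.05. Limma voom on recovered reads called none of them in either region. Even Tsga8, the gene knocked out, was not called by limma within a region. Its log2 difference was -5.79 ± 0.65 in steps 4 to 8 (limma adjusted p = 0.0569) and -3.60 ± 0.65 in the other region (limma adjusted p = 0.194). The lack of a call within a region therefore does not show that a level was unchanged. The median difference over the 6 was 0.01 in steps 4 to 8, where that of all genes was 0.01, and 0.05 in the other region, where that of all genes was 0.04. Groups of 2 against 2 stand apart often: this held for 29% of all genes in steps 4 to 8 and for 35.7% in the other region. Among all 8 importin genes it held for 2 in steps 4 to 8, both higher in KO, and for 4 in the other region, 2 higher and 2 lower in KO. By direction, 15.3% of all genes were higher and 13.6% lower in KO without overlap in steps 4 to 8, and 20% were higher and 15.7% lower in the other region.

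Kpna2 showed the widest gap. In steps 1 to 3 and 9 to 16 it had 19.4 and 25.8 RPKM in KO tissue, against 7.44 and 3.34 RPKM in control tissue. Both KO libraries lay far above both controls, a log2 difference of 1.95 ± 0.49 (SE; 95% interval 0.86 to 3.05), but it ranked 58th of 7857 genes by p and was not called (limma adjusted p = 0.381). With each library left out in turn the Kpna2 difference was 1.47 to 2.43. In steps 4 to 8 Kpna2 had 9.95 and 9.27 RPKM in KO tissue, against 10.5 and 9.11 RPKM in control tissue, with overlapping groups (-0.02 ± 0.49, limma adjusted p = 1). The change between regions of the genotype difference was 1.97 ± 0.69 (limma adjusted p = 1). In that comparison 0% of 7857 genes were called and 2.84% had an unadjusted p under 0.05, Kpna2 among them. Against steps 4 to 8, Kpna2 in steps 1 to 3 and 9 to 16 differed by 1.14 ± 0.49 in KO tissue (limma adjusted p = 0.48) and differed by -0.83 ± 0.49 in control tissue (limma adjusted p = 0.559). Its share of the listed alpha sum there was 73.8% ± 4.73 in KO and 47.9% ± 23.1 in control tissue (SD, n = 2 each). With the reads of Gm15564 taken off Kpna1, that share was 74.5% ± 4.36 in KO and 51.4% ± 18.9 in control tissue. Summed spermatocyte markers stood apart in the same direction in that region. They reached 193 to 199 RPKM in KO and 136 to 148 RPKM in control tissue. Their mean log2(RPKM + 1), which weighs each marker alike, overlapped, at 2.902 and 3.218 in KO and 2.92 and 3.305 in control tissue. The part of these markers in the Kpna2 gap was not tested.

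Kpna6 was the one importin gene whose listed level was higher in both KO libraries than in both controls in each captured region. It had 4.81 and 3.54 RPKM in KO tissue of steps 4 to 8, against 1.55 and 3.17 RPKM in control tissue. In steps 1 to 3 and 9 to 16 it had 4.18 and 4.74 RPKM in KO tissue, against 2.48 and 2.00 RPKM in control tissue. The differences of 0.66 ± 0.42 and 0.76 ± 0.42 did not pass (limma adjusted p = 1 in steps 4 to 8 and limma adjusted p = 0.806 in the other region). Their average of 0.71 ± 0.29 did not pass either (limma adjusted p = 0.617), in a comparison where 0.102% of 7857 genes were called, each of those lower. A KO level above control without overlap in both regions was found for 5.31% of all genes, and a level below control in both for 3.77%. The averaged comparison called 0 of 6 importin genes by limma and by limma voom, and Kpna2 (0.96 ± 0.34, limma adjusted p = 0.563) was, with Kpna6, the other importin gene with an unadjusted p under 0.05, as had 7.87% of all genes. The summed Sertoli and spermatocyte markers were higher in KO tissue of steps 4 to 8 as well, with no overlap. The mean log2(RPKM + 1) of the spermatocyte markers overlapped there, at 2.52 and 3.011 in KO and 2.915 and 2.366 in control tissue. The part of these markers in the Kpna6 values was not tested.

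Kpnb1 and Ipo5 were the genes whose KO libraries lay below the controls in steps 1 to 3 and 9 to 16. Kpnb1 had 0.420 and 1.07 RPKM in KO tissue, against 1.85 and 2.08 RPKM in control tissue (-0.79 ± 0.42, limma adjusted p = 0.796). Without the reads of Gm11583 the difference was -0.78 ± 0.42. Ipo5 had 7.86 and 10.4 RPKM in KO tissue, against 12.2 and 11.1 RPKM in control tissue (-0.32 ± 0.47, limma adjusted p = 0.923). In steps 4 to 8 both genes overlapped between genotypes: Kpnb1 had 0.860 and 1.04 RPKM in KO tissue, against 1.58 and 0.391 RPKM in control tissue. Ipo5 had 15.9 and 15.3 RPKM in KO tissue of steps 4 to 8, against 13.2 and 22.7 RPKM in control tissue.

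Kpna4 had wider gaps between regions than between genotypes, and none passed the test. In steps 1 to 3 and 9 to 16 it had 2.41 and 1.49 RPKM in KO tissue, against 0.940 and 2.83 RPKM in control tissue (0.10 ± 0.47, limma adjusted p = 0.983). It had 3.91 and 5.53 RPKM in KO tissue of steps 4 to 8, against 3.89 and 5.92 RPKM in control tissue (-0.04 ± 0.47, limma adjusted p = 1). In steps 1 to 3 and 9 to 16 its log2 level stood below that of steps 4 to 8, by -0.96 ± 0.47 in KO tissue (limma adjusted p = 0.515) and by -1.09 ± 0.47 in control tissue (limma adjusted p = 0.462). The regions did not overlap in either genotype, and 0% of 7857 genes were called between regions in either genotype. A lower level in steps 1 to 3 and 9 to 16 without overlap was found for 20.9% of all genes in KO and 20.6% in control tissue. An unadjusted p under 0.05 was found for 10.4% of all genes in KO tissue, Kpna2 being the only importin gene, and for 10.6% in control tissue, with Kpna4 the only one. The difference of Ipo5 between the same regions was -0.72 ± 0.47 in KO tissue (limma adjusted p = 0.619) and -0.54 ± 0.47 in control tissue (limma adjusted p = 0.716), and did not pass either. For Kpna1, Kpna6 and Kpnb1 these region differences were -0.39 ± 0.41, 0.09 ± 0.42 and -0.19 ± 0.42 in KO tissue, against 0.24 ± 0.41, -0.01 ± 0.42 and 0.65 ± 0.42 in control tissue. The median over the 6 importin genes was -0.29 in KO tissue and -0.28 in control tissue, where the median of all genes was 0.08 in KO and 0.04 in control tissue.

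Kpna3 and Ipo11 were below an RPKM of 1 in every captured library. Kpna3 had 0.0315 and 0.381 RPKM in KO tissue of steps 4 to 8, against 0.174 and 0.604 RPKM in control tissue. In the other region it had 0.127 and 0.148 RPKM in KO tissue, against 0.0245 and 0.193 RPKM in control tissue, where the lowest library held 43 reads. Ipo11 ranged over 0.182 to 0.391 RPKM in the 4 KO libraries and 0.0933 to 0.258 RPKM in the 4 control libraries of captured tissue. In a fit without a filter neither passed the test between genotypes in steps 4 to 8 (limma adjusted p = 1 for both) or in the other region (limma adjusted p = 0.987 for Kpna3 and 0.842 for Ipo11).

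**Figure D4:**
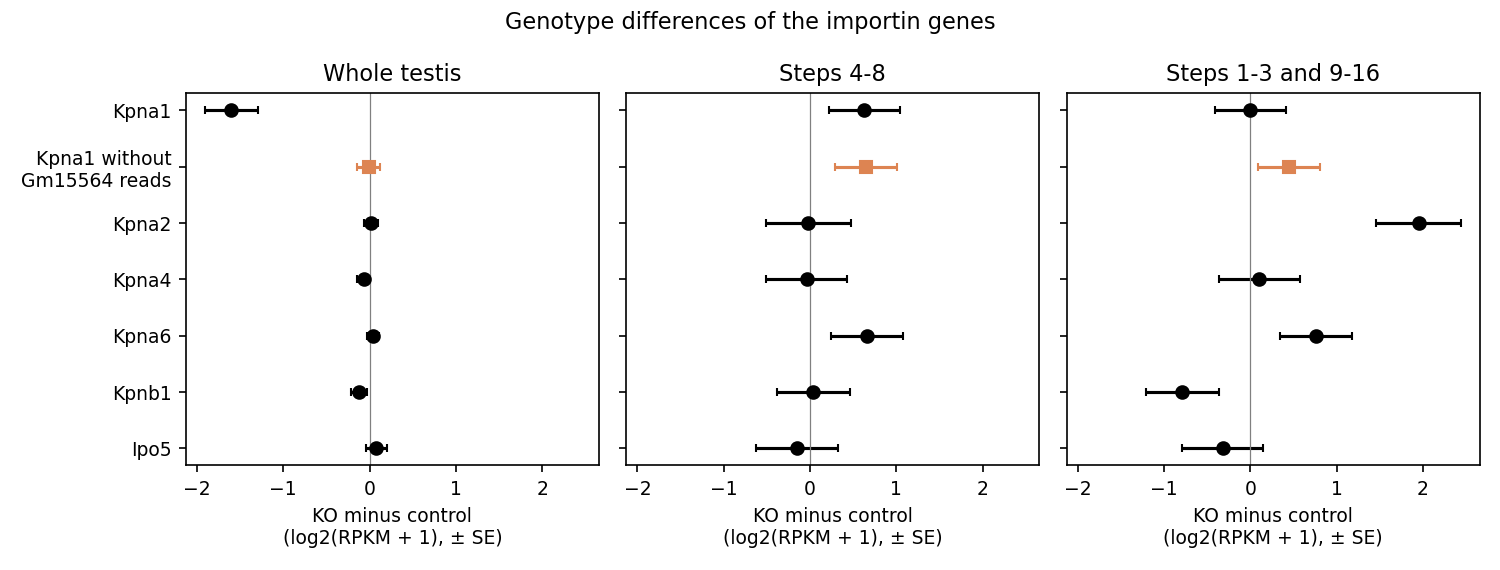
Log2 difference, KO minus control, of log2(RPKM + 1) with its SE for the 6 importin genes that entered the fits, in whole testis (n = 3 each) and the 2 captured regions (n = 2 each); orange squares show Kpna1 without the reads of Gm15564. Kpna1 in whole testis moves to -0.01 without those reads, and the captured differences plotted have SE of 0.36 to 0.49.

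The next comparison used the listed level of Kpna1, and predicted genes, Gm15564 among them, were left out of it by their symbols. Of the 4910 genes compared, those that followed this level most closely over the 14 libraries were Lars2 (Pearson r = 0.907), Fnip1 (0.819), Ranbp2 (0.769), Pcm1 (0.764) and Zfc3h1 (0.745). Each library was set against the mean of its tissue. The libraries share tissue, kit and genotype, and these correlations have no test. Since likeness to Kpna1 selects genes that are low in KO whole testis, they are described here by their levels only. Lars2, the mitochondrial leucyl-tRNA synthetase on chromosome 9, had 3.14, 0.724 and 1.57 RPKM in KO whole testis, against 8.59, 4.91 and 5.89 RPKM in control whole testis. Its reads were 0.799, 0.748 and 0.975 times those of Gm15564 in the KO libraries, against 0.774, 0.746 and 0.767 times in the control libraries, so the reads of the 2 genes kept close to 1 ratio in 5 of these 6 libraries. In captured tissue Lars2 was highest, at 2.28 RPKM, in the control library of steps 1 to 3 and 9 to 16 where Gm15564 made up most of the Kpna1 reads, and next, at 1.26 RPKM, in KO replicate 1 of steps 4 to 8, where it did not. Fnip1, a folliculin partner, averaged 1.15 ± 0.208 RPKM in KO and 1.80 ± 0.145 RPKM in control whole testis (SD, n = 3 each), Pcm1, a protein of centriolar satellites, 2.81 ± 0.270 RPKM in KO and 4.23 ± 0.246 RPKM in control whole testis, and Zfc3h1, of the nuclear RNA exosome pathway, 1.05 ± 0.293 RPKM in KO and 1.47 ± 0.0501 RPKM in control whole testis. None of the other importin genes tested was among them: their r with Kpna1 was 0.269 for Kpna4 and lower for the rest.

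Gm15564 and Lars2 share a run of identical sequence. It is shown because the 2 genes lie on different chromosomes and were listed lower in the same libraries. The run is 52 bases long, on the same strand of both transcripts, and no annotated transcript of another gene holds all of it. In Gm15564 it begins at base 179 of the transcript that holds it and lies within chr16:35981745-35983052 (mm10, reverse strand), inside the stretch shared with Kpna1. Only the first base of the run lies in the first exon of that transcript. The rest is an unbroken block in the second exon. In Lars2 it begins at base 3278 of 3894, beyond the coding sequence, which ends at base 2908. The first 30 bases follow, all of them identical between the 2 transcripts.
Gm15564 and Lars2: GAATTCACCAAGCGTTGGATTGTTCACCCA
The number of reads in this run is not in a table of one value per gene, and its part in either difference was not tested. Only annotated transcripts were searched. Whether other RNA, such as that of the ribosomal RNA repeats, holds a like sequence was not tested, and reads from such RNA could not be told apart here from those of Gm15564, of Lars2 or, in the shared stretch, of Kpna1.

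Around the importins, 2 of 44 tested genes of nuclear transport were called in whole testis, both lower in KO, where 6.15% of all 8146 genes were called and 2.04% were called lower. The genes came from lists of 55 genes for other importins and transportins, exportins, the Ran cycle and nucleoporins. Rcc1, the exchange factor that loads Ran with GTP on chromatin, had 5.95, 6.07 and 5.81 RPKM in KO whole testis, against 9.13, 9.55 and 8.54 RPKM in control whole testis. The groups stood well apart (-0.54 ± 0.07, limma adjusted p = 0.0102). Snhg3 and Gm17300 overlap Rcc1, and beyond their reads 83.5, 79.1 and 80.0 RPM remained in KO whole testis, against 141, 148 and 133 RPM in control whole testis, and the groups did not overlap there either. Ranbp2, a large Ran-binding nucleoporin of the cytoplasmic face of the pore, overlaps no gene and had 2.96, 2.12 and 2.79 RPKM in KO whole testis, against 3.99, 3.98 and 4.56 RPKM in control whole testis (-0.52 ± 0.10, limma adjusted p = 0.0339). Ranbp2 was also among the genes most like Kpna1, a likeness that rests in part on the same whole testis libraries, so the 2 results are not independent. Without 1 of 4 whole testis libraries (KO 2, KO 3, control 2 or control 3), or with no filter on low values (0.0912), the limma adjusted p of Ranbp2 was 0.0882 to 0.12, and without KO 3 or control 2 that of Rcc1 was 0.074 or 0.0526. With the replicate number as a block 4 of the 44 genes were called, 1 higher and 3 lower, where 740 of all 8146 genes were called. Without both libraries numbered 1 the count was 18 of 44, where 2997 of all 8146 were called.

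**Figure D5:**
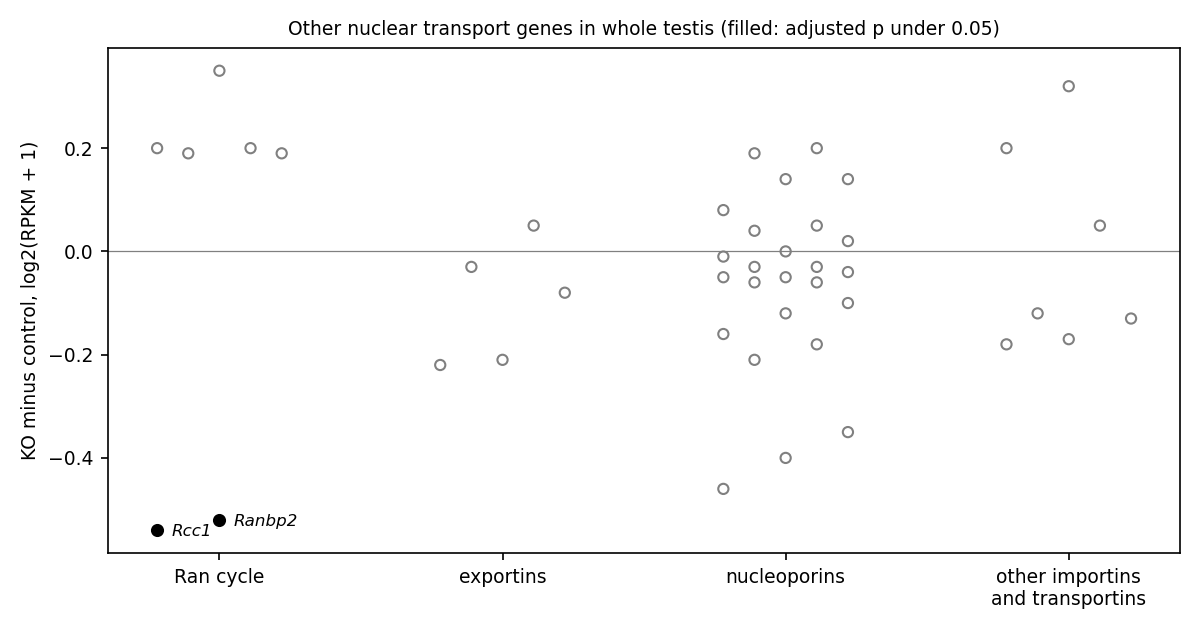
Log2 difference, KO minus control, of log2(RPKM + 1) in whole testis for the 44 tested genes of the 4 transport lists, 1 circle a gene. The 2 filled circles, Rcc1 and Ranbp2 at -0.54 and -0.52, are the genes called by limma.

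By list, the Ran cycle had 7 tested genes, of which these 2 fell and 5 lay above 0 without a call, with a median of 0.19. Among 7 other importins and transportins none was called, and the largest difference was that of Ipo13, a carrier that works in both directions (0.32 ± 0.09, limma adjusted p = 0.0808), with a list median of -0.12. Of 5 exportins none was called, and Cse1l, which returns importin alpha to the cytoplasm, stood at -0.22 ± 0.11 (limma adjusted p = 0.209), with a list median of -0.08. Of 25 nucleoporins none was called, and Nup98 differed most (-0.46 ± 0.12, limma adjusted p = 0.0617), with a list median of -0.04. The median of all 8146 genes was 0.09. In captured tissue limma called 0 of 31 tested transport genes in steps 4 to 8, where 3.63% of all genes had an unadjusted p under 0.05, and 0 of 31 in the other region, where 6.68% had; limma voom called none of them in either.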

How the data were processed

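The authors deposited 1 table of log2 RPKM values for 25965 gene symbols in 14 libraries, and 0 of its sample columns were left out. The tools named per the submitters' processing notes were Trim Galore 0.4.0, HISAT2 2.1.0 and FastQC, with the mm10 build. Which tool counted reads, on which gene models and with what regard to strand is not given in the sources used here. RPKM had been planned for, and the log2 values were turned back into it. Lengths were whole gene spans, and a gene with 0 reads stood in the table as 0.9 read. Whole reads were recovered from the values (99.98% within 0.05 of a whole number, 100% where under 1000).

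Genotypes were compared with limma 3.58.1 (R 4.3.3) on log2(RPKM + 1) with an intensity trend, two-sided, in 1 fit for whole testis (genes reaching an RPKM of 1 in 3 or more libraries) and 1 for the 8 captured libraries (in 2 or more). A fold on this scale understates changes of low genes. Called means a Benjamini-Hochberg adjusted p below 0.05 over all genes tested. Levels are RPKM, differences are log2 with SE, KO minus control. Fits were tested on simulated data. Nothing says that replicates came from separate animals beyond the series text, so p-values measure the spread between these libraries. No 2 replicates were close enough to be 1 library (chi-square per gene 10.4 to 535.3). In whole testis, KO and control libraries of the same number deviated together (correlations 0.329, 0.362 and 0.148). Of the unmatched pairs, KO 2 with control 3 reached 0.299 and KO 3 with control 1 reached 0.033, and the rest were negative. These values do not establish the numbers as pairs. A fit with the number as a block was made beside the unblocked fit. The unblocked fit gave the differences and SE reported, unless another setting is named. In captured tissue the correlations of libraries with the same number were 0.061 and 0.099.

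Named genes were the 8 importin genes, Tsga8, the 5 genes most like Kpna1, the called genes of the transport lists and the gene with the largest difference in each list; Gm15564, Gm11583 and other overlapping or similar genes were named after their values were seen. The importin genes and lists were chosen with earlier results of these data known. Transcript sequences and exons came from GENCODE M21 (mm10) and were aligned with Biopython 1.88.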

Additional observations from a re-analysis of the deposited data

Results flagged for a closer look

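Kpna1 had all KO libraries below the controls in whole testis and all KO libraries above the controls in captured steps 4 to 8. Its log2 difference was 0.63 in steps 4 to 8, against -1.60 in whole testis. The difference between these was not tested, because the tissues were prepared with different kits. Without the reads of the overlapping gene Gm15564 the KO and control libraries overlapped in whole testis.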

How the results depend on the processing

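The whole testis difference of Kpna1 lay between -1.97 and -1.35 with each library left out in turn, and was -0.01 net of Gm15564, an alternative chosen after seeing the data; the net value lay between -0.14 and 0.09 with each library left out. The number of genes called in whole testis was 501 of 8146 tested. Settings that tested other numbers of genes called 216 of 2840 where the mean RPKM had to reach 5, 171 of 25965 with no filter and 2385 of 19140 with limma voom. Of the same 8146 genes, 250 were called with a common sum, 2997 without both libraries numbered 1, and 76 to 1531 with each library left out. Of the 501, 335 were higher and 166 lower, against 49 and 122 with no filter, 166 and 50 at the mean of 5, 108 and 142 with a common sum, 1022 and 1363 with limma voom, and 2338 and 659 without both libraries numbered 1. Scalings that moved the median of all genes from 0.09 to 0 turned the split: median centring gave 194 higher and 310 lower, quantile normalization 157 higher and 216 lower. So did leaving out 1 library: 40 higher and 67 lower without control 2, 34 and 70 without control 3, 24 and 67 without KO 2, and 19 and 57 without KO 3. Transport genes called numbered 2 of 44, but 1 of 55 without a filter, 1 of 15 at the mean of 5 and 8 of 55 with limma voom. Of the same 44, 5 were called with median centring, 4 with the replicate block, 18 without both libraries numbered 1, and 0 to 5 with each library left out. The replicate block moved the count over all genes in whole testis to 740 and that of the averaged captured comparison to 7, against 8 without it, and, the transport genes in whole testis apart, left all other counts of calls as they were.

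In captured tissue no alternative called an importin gene. Over all genes, steps 4 to 8 had 1 call at the mean of 5 and with median centring (0 to 1 with each library left out); the averaged comparison had 8, but 5 at a pseudocount of 0.1, 0 without a filter and with limma voom, 13 with quantile normalization, and 0 to 3 with each library left out. Small differences that changed sign were, in steps 4 to 8 with a common sum, those of Kpna2 (0.14), Kpna4 (0.10) and Ipo5 (0.02); for Kpna1 in steps 1 to 3 and 9 to 16, -0.02 at a pseudocount of 4, -0.05 with median centring, -0.09 with quantile normalization and -0.06 with limma voom; for Kpna4 averaged, -0.03 with quantile normalization; between regions, Kpna1 in controls net of Gm15564 (-0.28), Kpna6 in controls at a pseudocount of 0.1 (0.00) and with limma voom (0.03), and Kpna6 in KO with a common sum (-0.02). The causes were not tested.

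With each library left out, differences that changed sign ranged as follows. In steps 4 to 8 they were -0.52 to 0.23 for Ipo5, -0.11 to 0.07 for Kpna2, -0.29 to 0.21 for Kpna4 and -0.40 to 0.49 for Kpnb1. In the other region they were -0.46 to 0.46 for Kpna1 and -0.39 to 0.59 for Kpna4. Averaged, Kpna4 ranged over -0.22 to 0.27. For the change between regions, Ipo5 ranged over -0.55 to 0.19, Kpna4 over -0.35 to 0.63 and Kpna6 over -0.25 to 0.45. Between regions, Kpna1 in controls ranged over -0.22 to 0.70, Kpna6 in controls over -0.37 to 0.34, Kpna6 in KO over -0.09 to 0.26 and Kpnb1 in KO over -0.46 to 0.08. With 2 libraries a group, captured genotype differences of the importin genes within a region carried SE of 0.36 to 0.49, and one left out leaves a lone library that is assumed to vary like the rest. Kpna3 and Ipo11, below the filter, rest on 43 to 3266 reads a library.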
